A study of Arabidopsis thaliana with 12 samples.

Results

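Non-treated rosettes of jac1, a mutant of the chloroplast movement gene JAC1, were compared with non-treated rosettes of the wild type. The comparison took 6 of the 12 samples of the series, 3 libraries of non-treated jac1 and 3 of the non-treated wild type, chosen by their sample labels alone. The other 6 samples are the same genotypes 30 min after UV-C at 100 mJ cm-2, and they were used only where the same genes are set beside those rosettes. Both genotypes were in the Col-0 gl1 background, which lacks most leaf hairs, so the wild type of this series carries the gl1 mutation too. The mutant line was jac1-1, a single line, and the nature of its lesion was not given in the sources used here. Plants were 4 weeks old and had grown in an 8 h photoperiod at 80 µmol photons m-2 s-1, 22 °C by day and 18 °C by night and 50% humidity. Each biological replicate pooled at least 4 rosettes. The hour of harvest of each group was not given in the sources used here, so genotype and hour of harvest cannot be told apart in these samples.

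JAC1 is an auxilin-like J-domain protein. In Arabidopsis it acts downstream of the phototropin blue-light receptors and is needed for chloroplasts to gather at the lit cell wall in weak light. The plant circadian clock is a set of mutually repressing transcription factors. CCA1 and LHY peak around dawn and repress evening genes, pseudo-response regulators (PRR) follow one another through the day, and the evening complex of ELF3, ELF4 and LUX closes the cycle. Through these factors the clock sets daily rhythms in light harvesting, starch use, growth and flowering genes.

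The reads counted per sample were 39098227, 35785424 and 33999174 in jac1, against 40445085, 38628961 and 34496078 in the wild type. Values below are normalised counts scaled to library size (CPM), and a log2 fold change (log2 FC) is jac1 over wild type. Genes were called differentially expressed (DEGs) where the false discovery rate (FDR) was under 0.01 and the log2 FC beyond 1 in either direction. Unless another test or fit is named, an adjusted p below comes from the quasi-likelihood test of edgeR. It is adjusted by the Benjamini-Hochberg method across the 20101 genes in the fit. An adjusted p given without a library comes from a refit without that library, adjusted across the genes of that refit. The first principal component, with 53.2% of the variance of the 6 samples, separated the genotypes. JAC1 transcript itself (AT1G75100, chromosome 1, 28190740 to 28194068) stood at 135, 161 and 157 CPM in jac1, against 88.1, 93.8 and 99.2 CPM in the wild type. Its log2 FC of 0.69 (SE 0.081, adjusted p = 5.4e-05) fell short of the fold threshold. The mutant transcript was thus not lower, and the level of JAC1 mRNA does not check the genotype labels. GL1 had 3 to 7 reads per library in jac1 and 11 to 17 in the wild type (log2 FC -1.16, adjusted p = 0.0581).

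Of 20021 nuclear genes tested, 391 were DEGs, which is 1.95%. Of these, 207 were higher in jac1 (1.03% of the genes tested) and 184 lower (0.919%), and none of the 73 chloroplast-encoded and 7 mitochondrion-encoded genes tested passed. The organelle transcripts carry few of these poly-A selected reads, at 0.0178 to 0.0219% of counts for the chloroplast in jac1 and 0.0172 to 0.0202% in the wild type. By the FDR alone 9.56% of nuclear genes passed, 5.24% higher and 4.32% lower. The libraries of the genotypes overlapped in 1 of the 391 DEGs, while in 36% of all nuclear genes they did not overlap. The median absolute log2 FC of the DEGs was 1.44, and 81 DEGs had one over 2, 37 of them higher and 44 lower. Scaling libraries by their size alone gave a median log2 FC of -0.11 over all nuclear genes, against -0.01 with TMM factors. Of the 398 DEGs 40.5% were then higher, against 52.9% with TMM factors. The lists with the most DEGs were the clock outputs, cell wall remodelling genes, light-harvesting genes, evening clock genes, touch-responsive genes and morning clock genes. The plot of fold changes by list gives every tested member.

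**Figure D1:**
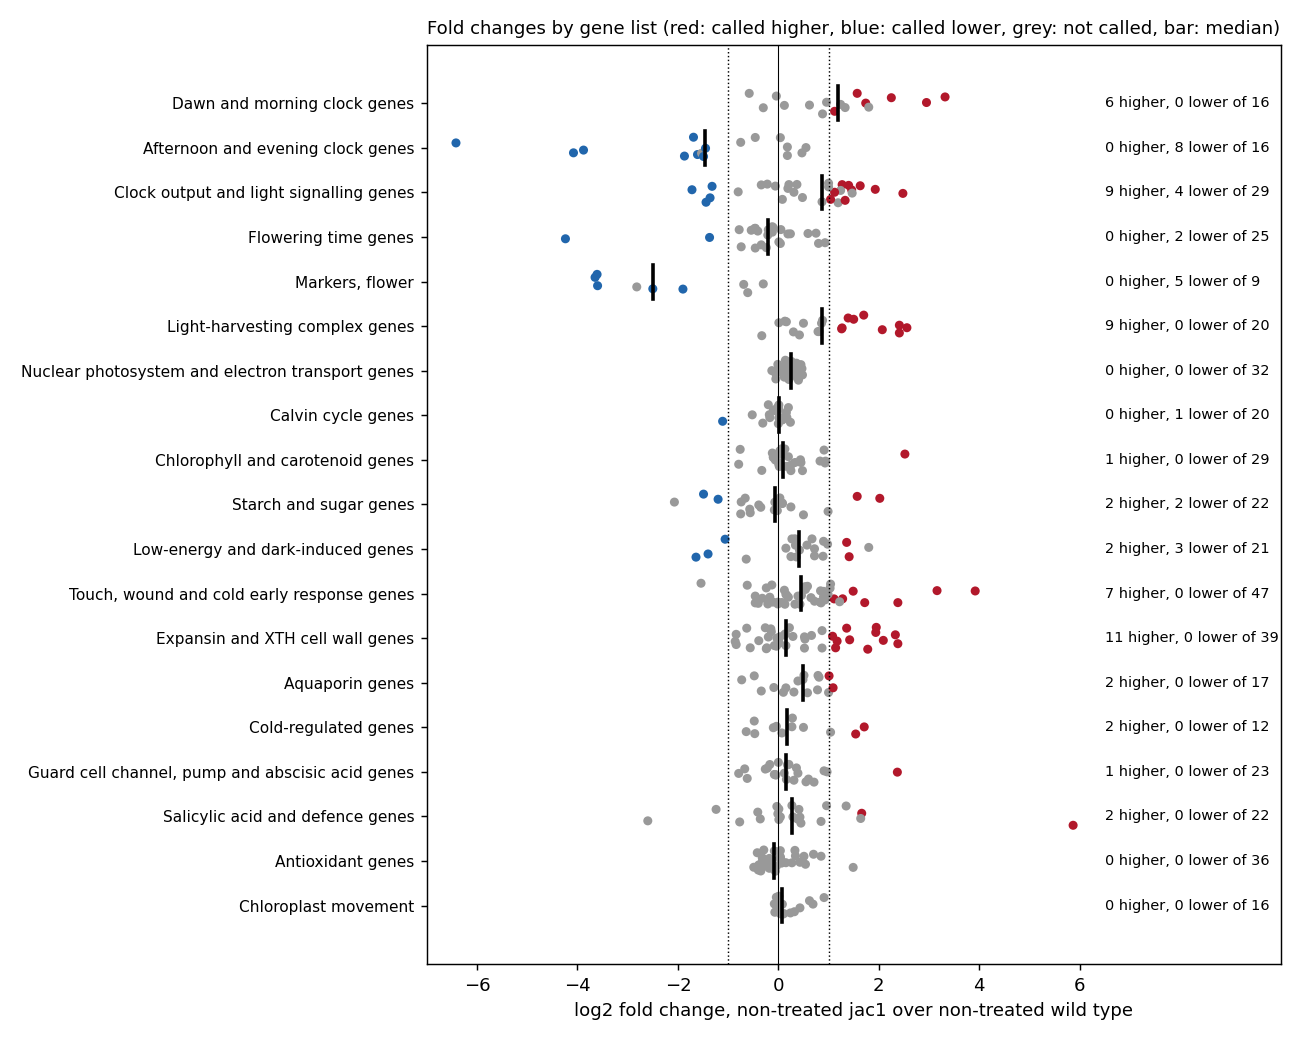
Log2 fold change (horizontal axis, non-treated jac1 over non-treated wild type) of every tested gene in 19 gene lists, with n = 3 libraries per genotype. Red points were called higher, blue points called lower and grey points not called, the black bar is the list's median and the dotted lines mark a log2 FC of 1 and -1 (values of genes at the floor in 1 genotype, such as FKF1, AP1 and WRKY38, depend on the fit). The morning and evening clock lists lie on opposite sides of 0, with medians of 1.18 and -1.47, while photosystem, Calvin cycle and antioxidant genes have medians between -0.09 and 0.25.

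Dawn and morning genes of the clock were higher in jac1 and afternoon and evening genes lower. Of 16 dawn and morning genes tested, 6 were higher and none lower, against 1.03% higher among all nuclear genes, with a median log2 FC of 1.18. Of 16 afternoon and evening genes tested, 8 were lower and none higher, against 0.919% lower among all nuclear genes, with a median log2 FC of -1.47, or -1.45 over the 15 that were above the floor of the counts in jac1. Members and lists, here and below, were chosen with earlier results of these data known, so these shares are a description and not a test. A group is at the floor where none of its libraries has more than 3 reads.

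CCA1, the MYB factor of the dawn loop, had 525, 605 and 638 CPM in jac1, against 112, 130 and 288 CPM in the wild type. Its log2 FC was 1.74 (SE 0.25, adjusted p = 0.000305), with every jac1 library above every wild-type library and the third wild-type replicate nearest to jac1. LHY, its close relative and partner, had 912, 1040 and 1021 CPM in jac1 and 281, 294 and 424 CPM in the wild type, a log2 FC of 1.57 (SE 0.12, adjusted p = 1.57e-06). RVE1, a related MYB factor that links the clock to auxin, had 226, 234 and 220 CPM in jac1, against 83.6, 82.5 and 147 CPM in the wild type (log2 FC 1.12, adjusted p = 0.000324). The LNK genes encode coactivators that work with RVE8. LNK2 had 867, 977 and 1015 CPM in jac1, against 99.2, 95.5 and 174 CPM in the wild type, a 7.75-fold higher mean (log2 FC 2.95, SE 0.18, adjusted p = 2.96e-07). LNK4 had 76.9, 87.8 and 108 CPM in jac1, against 3.63, 4.47 and 19.7 CPM in the wild type (log2 FC 3.32, SE 0.43, adjusted p = 0.000136). It overlaps AT5G06990 in the annotation, and the strand was not used in counting. LNK1 had 10, 10 and 13.4 CPM in jac1, against 0.543, 0.734 and 6.05 CPM in the wild type (log2 FC 2.25, adjusted p = 0.00644), and it is the called morning gene that rests most on single libraries. Leaving out any one of the 3 jac1 libraries or wild-type replicate 1 or 2 ended the call of LNK1, with a log2 FC of 1.75 to 2.33 and an adjusted p of 0.0118 to 0.0251. RVE1 stood just under the fold threshold, at 0.98 and 0.99, without wild-type replicate 2 and without replicate 1.

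Of the 10 morning genes that were not called, 7 had a positive log2 FC. LNK3 had 56.0, 68.2 and 108 CPM in jac1, against 6.63, 14.4 and 46.2 CPM in the wild type, a log2 FC of 1.80 that missed the FDR threshold (adjusted p = 0.0158). PRR7 had 9.68, 9.43 and 8.92 CPM in jac1, against 2.02, 2.06 and 8.06 CPM in the wild type (log2 FC 1.24, adjusted p = 0.0263). In both genes the third wild-type replicate lay close to jac1 and the other replicates far below it. RVE8 and RVE4, activators of evening genes, and RVE7 passed the FDR alone, with log2 FC of 0.88, 0.62 and 0.96. RVE2, at a log2 FC of -0.58 (adjusted p = 0.000319), was the 1 morning gene below the FDR threshold with a lower level in jac1. PRR9 was near the floor in most libraries, with 0.0968, 0.218 and 1.02 CPM in jac1 and 0, 0.0237 and 1.67 CPM in the wild type, and its sign depended on the fit.

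On the evening side, TOC1 (PRR1), which represses CCA1 and LHY, had 24.3, 26.4 and 21.4 CPM in jac1, against 89.8, 85.0 and 88.8 CPM in the wild type. The log2 FC was -1.87 (SE 0.083, adjusted p = 1.21e-08) and the libraries of each genotype lay within a narrow range. PRR5, the regulator that acts before TOC1 in the day, had 0.895, 1.04 and 0.853 CPM in jac1, against 13.4, 13.4 and 14.5 CPM in the wild type, so the wild-type mean was 14.8-fold higher (log2 FC -3.88, SE 0.18, adjusted p = 1.46e-08). PRR3, a partner of TOC1, had 4.38, 4.36 and 3.50 CPM in jac1 and 12.2, 12.5 and 12.7 CPM in the wild type (log2 FC -1.61, adjusted p = 7.16e-07). All 3 regulators had no overlap between the genotypes, like all but 1 of the 391 DEGs and 36% of all nuclear genes.

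Of the evening complex, ELF4 was at 0.581, 0.436 and 0.284 CPM in jac1, against 7.26, 7.74 and 7.48 CPM in the wild type (log2 FC -4.08, SE 0.26, adjusted p = 3.24e-07). LUX, the DNA-binding subunit, had 303, 272 and 214 reads in jac1, against 554, 771 and 1026 reads in the wild type (log2 FC -1.45, adjusted p = 0.000412). BOA, the close relative of LUX, had 255, 218 and 150 reads in jac1, against 801, 791 and 650 reads in the wild type (log2 FC -1.69, adjusted p = 1.49e-06). ELF3, the scaffold of the complex, passed the FDR alone, at 58.1, 59.8 and 48.9 CPM in jac1 and 96.0, 89.0 and 94.7 CPM in the wild type (log2 FC -0.75, adjusted p = 8.04e-05). FKF1, an F-box blue-light receptor of the flowering pathway, had 1, 0 and 1 reads in jac1, against 91, 72 and 74 reads in the wild type (adjusted p = 5.83e-07). Because jac1 was at the floor, no fold is given for FKF1. JMJD5, a histone demethylase gene expressed with TOC1, had 22.0, 22.4 and 17.2 CPM in jac1, against 64.7, 61.2 and 47.0 CPM in the wild type (log2 FC -1.49, adjusted p = 2.84e-06). Of the relatives of FKF1, ZTL stood at 47.7, 53.7 and 48.8 CPM in jac1 and 49.6, 48.7 and 47.9 CPM in the wild type (log2 FC 0.04, SE 0.063), and LKP2 had a log2 FC of 0.18 (SE 0.084), neither of them called. GI, with 0.109 to 0.242 CPM in jac1 and 0.189 to 1.17 CPM in the wild type, was not called (log2 FC -1.53, adjusted p = 0.114).

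**Figure D2:**
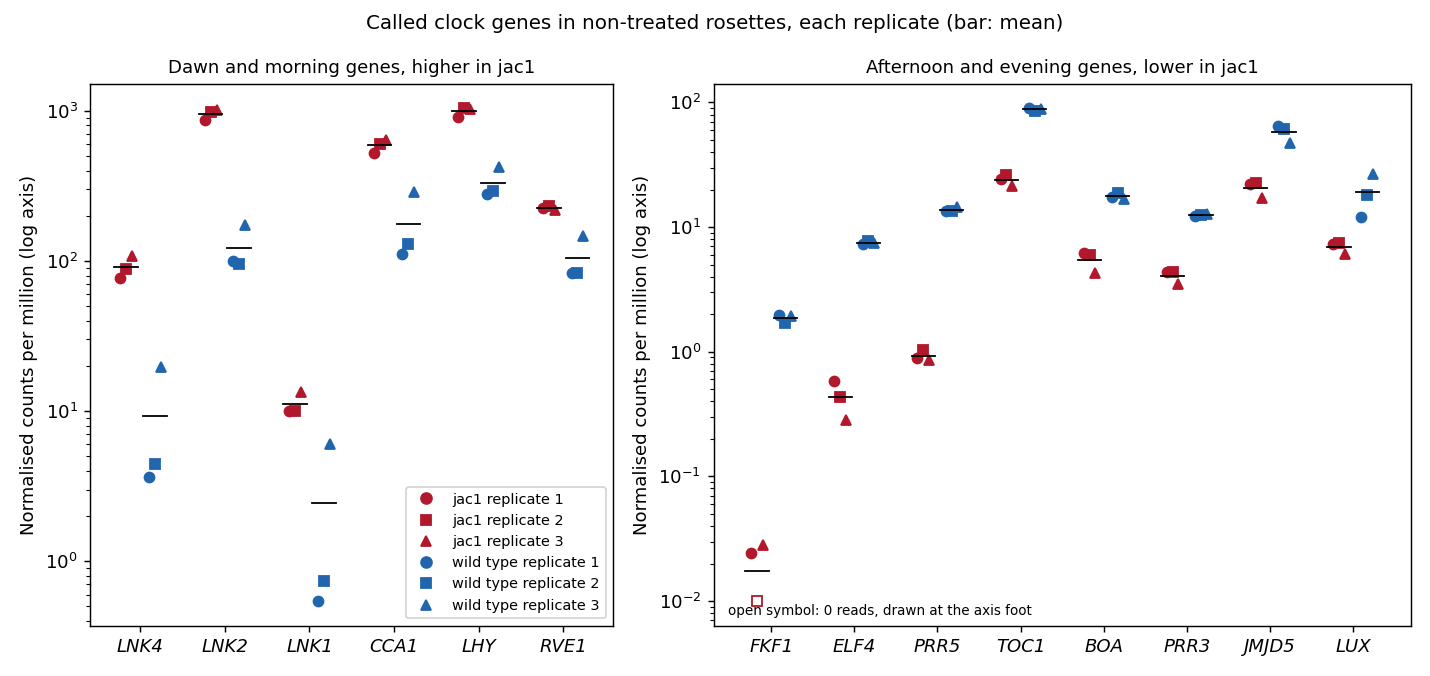
Normalised CPM (vertical log axes) of the 6 dawn and morning genes called higher and the 8 afternoon and evening genes called lower, in each non-treated library, with jac1 in red, the wild type in blue and a bar at the mean. The third wild-type replicate is the highest of the wild type in all 6 morning genes, for example 288 CPM for CCA1 against 112 and 130, while the evening genes show no such pattern.

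The third wild-type replicate stood apart in the morning genes. It was the highest wild-type library in 15 of 16 tested morning genes and nearest to the jac1 mean in 12 of 16, among them all 6 that were called. In the evening list it was the highest in 4 of 16 and nearest to jac1 in 3. The morning list lay at a median deviation of 0.54, 0.65 and 0.76 from its 6-sample mean in jac1, against -1.21, -1.1 and 0.09 in the wild type, on a log2 scale with a pseudocount of 0.1 CPM. The evening list lay at -0.45, -0.60 and -0.71 in jac1 and 0.34, 0.57 and 0.62 in the wild type. Without this library 10 morning genes were called in place of 6, RVE3, RVE7, LNK3 and PRR7 being added, and 306 of the 391 DEGs were kept among 356. What set it apart was not tested.

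**Figure D3:**
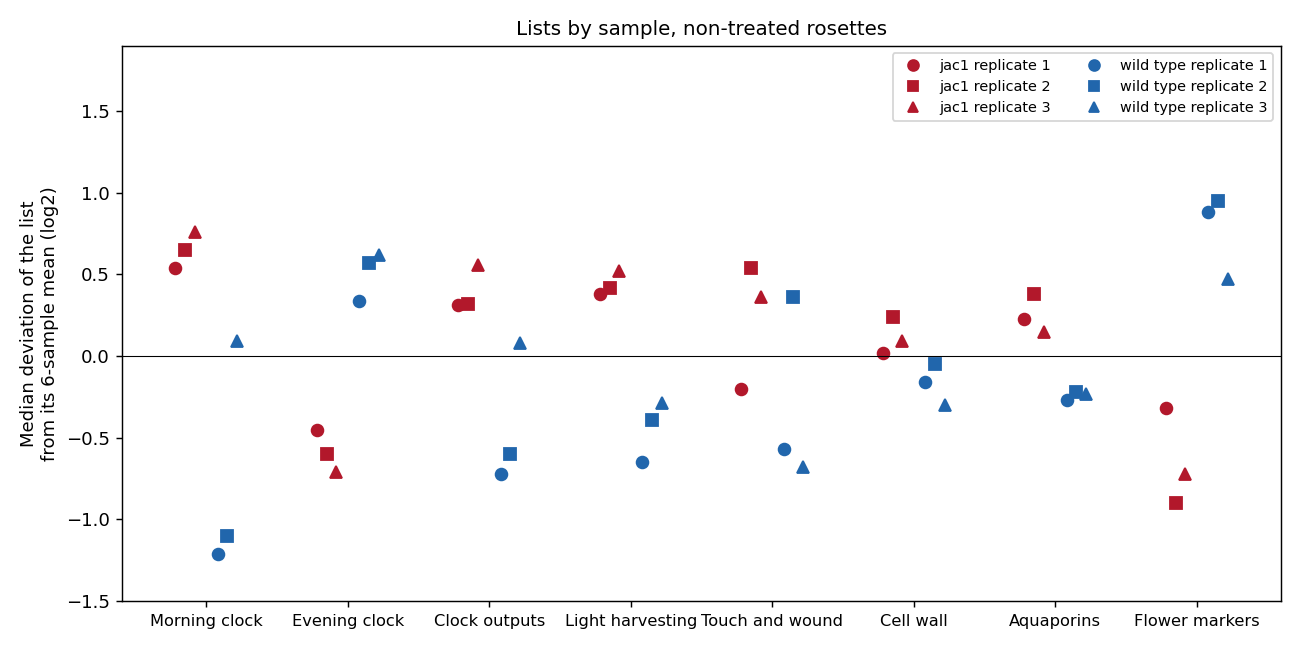
Median deviation of 8 gene lists from their 6-sample mean (vertical axis, log2 of CPM plus 0.1) in each non-treated library, jac1 in red left of the wild type in blue. The third wild-type replicate (triangle) sits at 0.09 for the morning clock genes, against -1.21 and -1.1 in the other wild-type replicates, and the second wild-type replicate (square) sits at 0.36 for the touch list, within the jac1 range of -0.20 to 0.54.

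Promoters of the clock genes that differed are shown because letters known to mark evening and light-regulated genes were found in many of them. Each window runs from 250 bases before to 50 after the start of the gene, in the TAIR10.1 reference of RefSeq, 5′ to 3′ along the gene's strand, and all 20021 nuclear genes tested were matched to such a window. The evening element, AAAATATCT, was searched on both strands, as were the CCA1-binding site AAAAATCT, the G-box CACGTG and the CGCG-type motif CGCGTT. TOC1 (chr5:24674713-24675012, plus strand), PRR5 (chr5:8358497-8358796, minus strand), FKF1 (chr1:25508389-25508688, plus strand) and LUX (chr3:17182792-17183091, plus strand) are evening genes that were lower in jac1. Capitals mark the matches, which read AGATATTTT where the evening element lies on the opposite strand, AGATTTTT for the CCA1-binding site and AACGCG for the CGCG-type motif.
TOC1: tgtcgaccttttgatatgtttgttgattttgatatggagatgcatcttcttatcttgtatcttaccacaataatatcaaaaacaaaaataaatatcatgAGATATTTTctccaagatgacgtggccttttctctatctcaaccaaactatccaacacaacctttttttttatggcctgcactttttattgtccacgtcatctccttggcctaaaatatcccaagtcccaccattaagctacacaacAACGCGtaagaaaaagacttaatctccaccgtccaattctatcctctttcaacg
PRR5: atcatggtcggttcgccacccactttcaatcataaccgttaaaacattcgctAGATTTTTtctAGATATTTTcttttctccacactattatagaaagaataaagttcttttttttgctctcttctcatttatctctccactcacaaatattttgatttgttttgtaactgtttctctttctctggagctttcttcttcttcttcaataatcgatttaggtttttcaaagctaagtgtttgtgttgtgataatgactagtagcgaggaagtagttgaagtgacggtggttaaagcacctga
FKF1: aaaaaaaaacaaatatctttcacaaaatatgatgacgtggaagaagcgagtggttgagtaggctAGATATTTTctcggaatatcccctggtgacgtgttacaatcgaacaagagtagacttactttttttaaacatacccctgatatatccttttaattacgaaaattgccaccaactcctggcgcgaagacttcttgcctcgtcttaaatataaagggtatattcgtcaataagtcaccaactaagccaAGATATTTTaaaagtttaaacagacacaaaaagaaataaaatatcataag
LUX: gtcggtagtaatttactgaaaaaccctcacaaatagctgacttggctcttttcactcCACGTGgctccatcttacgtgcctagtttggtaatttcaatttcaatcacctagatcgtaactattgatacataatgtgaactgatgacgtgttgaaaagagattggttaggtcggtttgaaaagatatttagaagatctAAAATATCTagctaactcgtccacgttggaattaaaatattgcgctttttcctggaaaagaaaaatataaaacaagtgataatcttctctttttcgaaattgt

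The evening element begins 151 bases before the start in TOC1, 187 in PRR5, 186 in FKF1 and 53 in LUX, and FKF1 holds a further copy at its start. PRR5 also has a CCA1-binding site 198 bases before its start, TOC1 a CGCG-type match 4 bases before and LUX a G-box 193 bases before. Of the morning genes higher in jac1, CCA1 (chr2:19245341-19245640, plus strand) has a G-box 193 bases before its start and LNK2 (chr3:20179021-20179320, minus strand) one at position 25 after it, both in capitals.
CCA1: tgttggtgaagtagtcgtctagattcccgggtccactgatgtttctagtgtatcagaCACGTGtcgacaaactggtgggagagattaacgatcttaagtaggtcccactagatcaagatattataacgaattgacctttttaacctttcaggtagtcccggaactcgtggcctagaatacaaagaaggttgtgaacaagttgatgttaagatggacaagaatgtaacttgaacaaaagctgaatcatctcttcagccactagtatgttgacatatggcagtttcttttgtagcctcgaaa
LNK2: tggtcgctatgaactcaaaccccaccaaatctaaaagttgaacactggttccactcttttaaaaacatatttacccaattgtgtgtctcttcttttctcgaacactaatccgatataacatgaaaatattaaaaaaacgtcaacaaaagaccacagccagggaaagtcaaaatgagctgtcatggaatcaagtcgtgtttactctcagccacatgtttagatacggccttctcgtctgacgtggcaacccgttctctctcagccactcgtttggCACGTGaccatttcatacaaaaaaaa

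Over all nuclear genes tested, the evening element was present in 602 windows, or 3.01%. It was present in 42 of the 184 DEGs lower in jac1 (22.8%) and in 1 of the 207 higher (0.483%), the 1 being COL2. Of the 8 evening clock genes called it was in 6, the exceptions being ELF4 and PRR3, whose windows do not hold these letters. The 42 genes include 30 outside the lists of clock, output and other genes used here. Among them were BBX8 and BBX13, B-box zinc finger genes, with log2 FC of -1.55 and -1.41, the pyruvate decarboxylase gene PDC2 at -2.22, the metallothionein gene MT2A at -1.35 and ABF1, a bZIP factor of abscisic acid signalling, at -1.38. These were named after their values were seen. The G-box was in 8.87% of all windows, in 13% of the higher and 15.8% of the lower DEGs, and in 5 of the 6 called morning genes. The CCA1-binding site was in 8.03% of all windows, 9.18% of the higher and 9.78% of the lower DEGs. The CGCG-type motif was in 3.81%, 5.31% and 4.35% of them. A match is a description of the letters and not a binding site.

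Genes driven by the clock differed in both directions. Of 29 output and light-signalling genes tested, 9 were higher and 4 lower, against 1.03% and 0.919% of all nuclear genes. Their median log2 FC was 0.87. COL2, a CONSTANS-like B-box gene of the morning, had 339, 397 and 425 CPM in jac1, against 66.2, 86.9 and 153 CPM in the wild type (log2 FC 1.93, SE 0.22, adjusted p = 3.8e-05). PIF5, a bHLH factor that promotes elongation growth, had 75.3, 80.7 and 88.0 CPM in jac1, against 18.6, 22.1 and 38.3 CPM in the wild type (log2 FC 1.63, SE 0.19, adjusted p = 4.84e-05). PIF4, its partner, had 12.5, 12.3 and 13 CPM in jac1 and 6.52, 5.75 and 6.13 CPM in the wild type, a log2 FC of 1.04 that was 0.99 without wild-type replicate 2. The growth genes often placed downstream of the PIF factors, such as IAA19, IAA29, YUC8 and PIL1, gave no DEG among 15 tested. The share over all nuclear genes was 1.95%. By the FDR alone 3 of the 15 were higher and none lower, against 5.24% and 4.32% of all nuclear genes. The CDF factors repress CONSTANS in the morning. CDF1 had 87.8, 75.8 and 80.7 CPM in jac1, against 17.2, 22.0 and 50.1 CPM in the wild type (log2 FC 1.46, adjusted p = 0.00206, and 0.0115 without wild-type replicate 2 at a log2 FC of 1.28), and CDF5 rose by 2.48 on the log2 scale. CONSTANS (CO), the activator of flowering that they repress, had 1.38, 1.39 and 1.56 CPM in jac1, against 3.65, 3.17 and 4.98 CPM in the wild type (log2 FC -1.44, adjusted p = 0.00279), with an adjusted p of 0.0124 to 0.0177 without jac1 replicate 1 or 2 or wild-type replicate 3.

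The B-box genes COL5, BBX19, BBX25 and BBX29 rose by 1.27, 1.12, 1.33 and 1.4 on the log2 scale, and COL9 fell by 1.36. BBX29 missed the FDR threshold without any one of the jac1 libraries or wild-type replicate 1 or 2 (adjusted p 0.0152 to 0.0293, log2 FC 1.05 to 1.48). GRP7 and GRP8, glycine-rich RNA-binding proteins that form a slave oscillator peaking in the evening, were both lower. GRP7 had 118, 101 and 82.1 CPM in jac1, against 362, 329 and 297 CPM in the wild type (log2 FC -1.72, SE 0.12, adjusted p = 9.02e-07), and GRP8 fell by 1.32. The photoreceptor and light-signalling genes HY5, PIF1, PIF3, PHYB, CRY1 and CRY2 had log2 FC between -0.22 and 0.37. As in the morning clock list, the third wild-type replicate was the highest of the wild type in 21 of the 29 genes and nearest to jac1 in 22.

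Some floral genes were lower in jac1. Among 25 flowering time genes tested, 2 were lower, AP1 and FUL, against 0.919% of all nuclear genes, and none higher. The median log2 FC was -0.20. AP1, the floral meristem identity gene, had 2, 1 and 1 reads in jac1, against 29, 40 and 25 reads in the wild type (adjusted p = 0.000136), and no fold is given since jac1 was at the floor. FUL, its relative in the meristem, had 2.59, 1.47 and 1.65 CPM in jac1, against 5.32, 4.54 and 5.06 CPM in the wild type (log2 FC -1.37, adjusted p = 0.000322). The integrators and repressors upstream were not called: SOC1 had a log2 FC of -0.46, SVP of -0.54, FD of -0.74, SPL9 of -0.78 and FLC of 0.24, and FT did not pass the filter on low counts.

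Of 17 flower markers, 9 passed the filter and 5 were lower in jac1, against 0.919% of all nuclear genes. The median log2 FC was -2.5 over the 9 and -1.9 over the 7 above the floor. A marker with hardly any reads in jac1 could pass the filter only through the wild type. The filter thus leans these medians towards lower values. SEP1, a co-factor of all floral organ genes, had 0.436, 0.0545 and 0.171 CPM in jac1, against 2.93, 3.03 and 2.48 CPM in the wild type (log2 FC -3.60, SE 0.42, adjusted p = 4.86e-05). SEP3 and PI, the petal and stamen gene, fell by 2.5 and 1.9. SEP2 had 5, 0 and 1 reads in jac1 and 31, 34 and 25 reads in the wild type. AP3, the partner of PI, had 1, 0 and 2 reads in jac1 and 14, 23 and 10 reads in the wild type, and its adjusted p of 0.00388 was 0.0167 to 0.021 without jac1 replicate 1 or 2 or wild-type replicate 2. AG and SHP1, which act in stamens and carpels, were not called, with log2 FC of -0.69 and -0.61, and CRC, a carpel gene, had 3, 0 and 0 reads in jac1, against 13, 11 and 3 reads in the wild type (adjusted p = 0.0322). The summed level of all 17 markers was 23.5 to 26.9 reads scaled to library size (RPM) in jac1, against 37.3 to 41.3 in the wild type, most of it from SEP4, which is also expressed in leaves and had a log2 FC of -0.30. The later floral markers MS2, A9, A6 and GRP17 did not pass the filter. Most of these genes had under 1 CPM in both genotypes. In whole rosettes, fewer cells of a type and less RNA per cell cannot be told apart. The summed markers of vascular tissue were 114 to 123 RPM in jac1, against 140 to 162 in the wild type, and those of stomatal cells 126 to 133, against 117 to 123. Mesophyll, epidermis, dividing cell, trichome and senescence markers overlapped between the genotypes, and the root markers stood at 36.9 to 43.5 in jac1, against 35.5 to 36.5 in the wild type, with 4 of 11 at 0 reads in all 6 libraries. Of the epidermis markers CER1, an alkane synthesis gene, fell by 1.66, a call that was lost without any one of the 6 libraries (adjusted p 0.0104 to 0.0264). Their part in the other results was not tested.

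Of the photosynthesis genes, 9 of the antenna were higher in jac1, while none of the photosystem cores they serve passed the fold threshold. Light-harvesting chlorophyll a/b proteins capture light and pass the energy to the reaction centres. Of 20 nuclear light-harvesting genes tested, 9 were higher and none lower, against 1.03% higher among all nuclear genes. The median log2 FC was 0.87, and 15 were higher by the FDR alone, against 5.24% of all nuclear genes. LHCB1.1 had 6056, 6562 and 6735 CPM in jac1, against 769, 1029 and 1494 CPM in the wild type, a 5.88-fold higher mean (log2 FC 2.56, SE 0.18, adjusted p = 6.86e-07). LHCB2.3 had 772, 835 and 938 CPM in jac1, against 119, 152 and 207 CPM in the wild type (log2 FC 2.41, SE 0.15, adjusted p = 3.21e-07). LHCB2.2 and LHCB2.1 rose by 2.41 and 2.07, LHCB3 by 1.70, LHCB1.4 and LHCB1.2 by 1.5 and 1.39, and LHCA1 and LHCA4, antenna genes of photosystem I, by 1.27 and 1.26. Copies of LHCB1 and LHCB2 are near-identical and reads that fit several places were not counted, so the split between copies is uncertain. Together the 21 antenna genes took 7.13, 7.33 and 7.57% of the counts in jac1, against 3.87, 4.33 and 4.56% in the wild type (exact permutation test, two-sided, p = 0.1, the smallest that 3 against 3 libraries allow).

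No gene of 32 for the photosystem cores and electron transport was called. By the FDR alone 13 were higher, against 5.24% of all nuclear genes, at a median log2 FC of 0.25 over the list. Of 20 genes in the Calvin cycle list, 1 was called, against 1.95% of all nuclear genes. It was FBA5, an aldolase gene assigned to the cytosol, which fell by 1.11 (SE 0.066, adjusted p = 2.13e-07). Among 29 chlorophyll and carotenoid genes, BCH2, a beta-carotene hydroxylase, had 39.8, 47.3 and 53.7 CPM in jac1, against 5.21, 6.63 and 12.9 CPM in the wild type (log2 FC 2.52, SE 0.23, adjusted p = 7.83e-06). CAO, which makes chlorophyll b, CHLH, a magnesium chelatase subunit, and HEMA1, the first committed enzyme of tetrapyrrole synthesis, had log2 FC of 0.94, 0.93 and 0.91, and each passed the FDR but not the fold threshold.

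Starch and low-energy genes moved both ways. Of 22 starch and sugar genes tested, 2 were higher and 2 lower, against 1.03% and 0.919% of all nuclear genes. GBSS1, the granule-bound enzyme of amylose synthesis, had 158, 179 and 211 CPM in jac1, against 34.3, 37.7 and 63.6 CPM in the wild type (log2 FC 2.02, SE 0.18, adjusted p = 5.65e-06), and BAM9, a beta-amylase relative, rose by 1.57. PHS2, the cytosolic glucan phosphorylase of night-time starch use, had 43.5, 44.1 and 38.8 CPM in jac1, against 121, 122 and 112 CPM in the wild type, the lowest p of any lower DEG (log2 FC -1.49, SE 0.06, adjusted p = 1.11e-08). ISA3, a debranching enzyme of starch breakdown, fell by 1.2. Of 21 genes induced by darkness or low energy, 2 were higher and 3 lower, against the same shares of all nuclear genes. ASN1, an asparagine synthetase repressed by light and sugar, had 134, 190 and 144 CPM in jac1, against 64.6, 52.5 and 58.6 CPM in the wild type (log2 FC 1.41, adjusted p = 3.69e-06). BT2, a scaffold protein gene responding to sugar and nitrogen, had 74.5, 71.6 and 46.0 CPM in jac1 and 23.8, 37.7 and 13.3 CPM in the wild type (log2 FC 1.36, adjusted p = 0.00703), with an adjusted p of 0.0163 to 0.0314 without jac1 replicate 1 or 2 or wild-type replicate 1 or 3. The dormancy-associated genes DRM1 and DRM2 and the RING finger gene ATL8 fell by 1.4, 1.64 and 1.06, the last to a log2 FC of -0.99 without jac1 replicate 2.

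Some touch-responsive genes were higher in jac1, with wide spread between replicates. Of 47 touch, wound and cold early response genes tested, 7 were higher and none lower, against 1.03% higher among all nuclear genes. The median log2 FC was 0.46, and 11 were higher by the FDR alone, against 5.24% of all nuclear genes. EXO, a brassinosteroid-responsive cell expansion gene, had 124, 50.2 and 16.8 CPM in jac1, against 9.06, 8.42 and 3.83 CPM in the wild type (log2 FC 3.16, SE 0.55, adjusted p = 0.0012). EXL7, its relative, had 52.6, 31.8 and 14 CPM in jac1, against 1.48, 4.16 and 0.808 CPM in the wild type (log2 FC 3.92, SE 0.53, adjusted p = 0.000172). In both genes the jac1 libraries spread several-fold and still lay above every wild-type library. TCH4, the touch-induced xyloglucan endotransglucosylase, had 60.9, 67.7 and 25.5 CPM in jac1, against 7.04, 18.0 and 4.46 CPM in the wild type (log2 FC 2.38, SE 0.41, adjusted p = 0.00106). CML9, a calmodulin-like calcium sensor, had 91.8, 100 and 114 CPM in jac1, against 41.1, 51.2 and 48.9 CPM in the wild type (log2 FC 1.11, SE 0.11, adjusted p = 9.2e-06), with the smallest SE of the 7 called. CBF2, a cold-response activator, had 376, 668 and 449 reads in jac1, against 101, 324 and 87 reads in the wild type (log2 FC 1.72, adjusted p = 0.00793). CML23 and KRP1 (AT4G27280), both calcium-binding protein genes, rose by 1.28 and 1.49, and KRP1 was the 1 DEG whose samples overlapped, the jac1 library at 10 CPM lying below the wild-type library at 10.2.

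The calmodulin-related genes TCH2, TCH3 and CML5 passed the FDR but not the fold threshold, with log2 FC of 0.83, 0.9 and 0.9. The calls of CBF2, CML23 and KRP1 were each lost without any of 4 libraries, with adjusted p of 0.017 to 0.0463, 0.0135 to 0.0539 and 0.0145 to 0.0334. For all 3 these included jac1 replicate 2 and wild-type replicates 1 and 3, the fourth being jac1 replicate 3 for CBF2 and CML23 and jac1 replicate 1 for KRP1. The list lay at a median deviation of -0.20, 0.54 and 0.36 in jac1, against -0.57, 0.36 and -0.68 in the wild type, so that the second wild-type replicate lay within the range of jac1. Without it, 15 members were called in place of 7. Without jac1 replicate 2, wild-type replicate 1 or wild-type replicate 3, 4 members were called. Fitted on the 6 non-treated samples alone, 2 were called. The classic transcriptional markers of wounding and stress, among them ZAT10, ZAT12, WRKY33, WRKY40, ERF5, JAZ1 and LOX3, were not called. After UV-C the whole list stood at 3.03 to 3.28 in jac1 and 3.02 to 3.25 in the wild type on the same scale.

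Of 39 cell wall remodelling genes tested, 11 were higher and none lower, against 1.03% higher among all nuclear genes. The median log2 FC over the list was 0.15, and 15 of the 39 had a negative one. TCH4, already counted in the touch list, is among the 11. XTH enzymes cut and rejoin xyloglucan, and expansins loosen the wall. Beside TCH4, which is XTH22, the called XTH genes were XTH25, XTH23, XTH33, XTH6, XTH24 and XTH27, with log2 FC of 2.33, 2.09, 1.95, 1.42, 1.36 and 1.08. XTH6 had 327, 375 and 274 CPM in jac1, against 143, 134 and 88.3 CPM in the wild type (SE 0.19, adjusted p = 0.00016). BXL1, a beta-xylosidase of arabinoxylan turnover, had 268, 483 and 301 CPM in jac1, against 110, 110 and 86.0 CPM in the wild type (log2 FC 1.78, SE 0.18, adjusted p = 1.83e-05). Its relative BXL2 and the expansin-like genes EXLA1 and EXLA2 rose by 1.17, 1.94 and 1.14. No overlap between genotypes was seen in any of the 11, as in all but 1 of the 391 DEGs and in 36% of all nuclear genes. XTH23 missed the FDR threshold without jac1 replicate 1 or 2 or wild-type replicate 1 or 3 (adjusted p 0.0222 to 0.0297), XTH27 stood at 0.90 and 0.91 without jac1 replicate 1 and without wild-type replicate 3, and BXL2 at 0.99 without wild-type replicate 3. None of the 11 alpha-expansin genes tested was called.

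PIP2;1, a plasma membrane aquaporin, had 897, 1070 and 962 CPM in jac1, against 447, 439 and 486 CPM in the wild type (log2 FC 1.09, SE 0.099, adjusted p = 6.6e-06). PIP2;3 rose by 1.01, a value just over the threshold that was 0.9 to 1 without jac1 replicate 2 or 3 or wild-type replicate 1 or 2, and shares long stretches with PIP2;2. Of 17 aquaporins tested, 2 were thus called, against 1.95% of all nuclear genes. By the FDR alone 9 were higher and 2 lower, against 5.24% and 4.32% of all nuclear genes. With libraries scaled by size alone, neither was called. Of 23 guard cell and abscisic acid genes, 1 was called, CLC-B, against 1.95% of all nuclear genes. It is a chloride channel family gene. It had 15.7, 19.5 and 23.0 CPM in jac1, against 3.21, 3.53 and 4.54 CPM in the wild type. Its log2 FC was 2.37 (SE 0.15, adjusted p = 3.25e-07). SLAC1, KAT1, OST1 and the marker genes RD29A and RAB18 were not called.

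Among 22 salicylic acid and defence genes, WRKY70, a node between salicylate and jasmonate signalling, had 19.9, 34.7 and 25.9 CPM in jac1, against 8.04, 11 and 6.41 CPM in the wild type (log2 FC 1.66, SE 0.22, adjusted p = 0.000134). SARD1 (AT1G73805), a relative of calmodulin-binding proteins that promotes salicylic acid synthesis, had 1.89, 4.39 and 5.57 CPM in jac1 and 1.72, 2.04 and 2.27 CPM in the wild type, with overlap, and was not called (log2 FC 0.96, SE 0.36, adjusted p = 0.0867). Without jac1 replicate 1 it was called, at a log2 FC of 1.32 and an adjusted p of 0.00829. WRKY38 had 12, 6 and 9 reads in jac1 and 0 in every wild-type library (adjusted p = 0.00877), and its call was lost without any one of the 6 libraries (adjusted p 0.0173 to 0.0255). PR1, the usual marker of the pathway, had a mean of 6.55 CPM in jac1 and 2.5 CPM in the wild type and was not called (adjusted p = 0.377). Of 12 cold-regulated genes, COR15A, a chloroplast-stabilising protein gene, had 68.3, 67.2 and 73.3 CPM in jac1, against 19.4, 29.6 and 23.1 CPM in the wild type (log2 FC 1.54, SE 0.13, adjusted p = 4.32e-06), and GOLS3, a galactinol synthase, rose by 1.71. No member was called of 36 antioxidant, 13 flavonoid, 17 glucosinolate and sulfur, 6 heat shock, 16 chloroplast movement and 8 auxilin-like and HSC70 genes tested. The share called over all nuclear genes was 1.95%. By the FDR alone 4 antioxidant genes were higher and 6 lower, and 5 chloroplast movement genes were higher and none lower. The shares of all nuclear genes by the FDR alone were 5.24% higher and 4.32% lower. The ascorbate-recycling gene MDAR3 had a log2 FC of 1.49 (adjusted p = 0.113). AT5G54130, annotated to a calcium-binding endonuclease, exonuclease and phosphatase family and in no list, had 48.6, 45.8 and 61.2 CPM in jac1, against 20.2, 19.2 and 30.9 CPM in the wild type (log2 FC 1.15). In the chloroplast movement list RPT2, a phototropin-interacting protein gene, had 878, 961 and 834 CPM in jac1, against 492, 503 and 431 CPM in the wild type (log2 FC 0.91, adjusted p = 5.12e-06). PHOT1 and PHOT2, the receptors, had log2 FC of -0.04 and -0.07 (SE 0.074 and 0.072), and CHUP1, which anchors chloroplasts to actin, 0.08 (SE 0.059).

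Of the 10 DEGs with the largest increase at 1 CPM or more in the higher genotype, 4 belong to the clock and touch lists above. AT3G09450, a fusaric acid resistance family protein gene, had 18.0, 24.6 and 28.1 CPM in jac1, against 0.521, 0.781 and 0.965 CPM in the wild type (log2 FC 4.97, SE 0.21, adjusted p = 1.11e-08). CIPK20, a calcium-sensor-interacting kinase, had 8.06, 11.5 and 12.5 CPM in jac1, against 0.0869, 0.189 and 1.80 CPM in the wild type (log2 FC 4.03, adjusted p = 5.4e-05). AT1G26790, a Dof-type zinc finger gene, had 20.2, 25.7 and 37.5 CPM in jac1, against 0.587, 1.16 and 5.34 CPM in the wild type (log2 FC 3.60, adjusted p = 0.00012). In both, the third wild-type replicate was the wild-type library nearest to jac1. AT3G54510, which neighbours LNK2, and AT3G55580 rose by 3.85 and 2.89.

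Of the 10 with the largest decrease, 3 are FKF1, ELF4 and PRR5. AT1G07050, a CCT motif family gene like the PRR and CONSTANS genes, had 0.799, 0.709 and 0.455 CPM in jac1, against 8.71, 10.1 and 10.6 CPM in the wild type (log2 FC -3.88, SE 0.19, adjusted p = 3.68e-08). AT5G37940 had 1, 0 and 3 reads in jac1, against 207, 139 and 165 reads in the wild type. CYP96A15, the midchain alkane hydroxylase of stem wax, had 2, 0 and 1 reads in jac1, against 93, 61 and 57 reads in the wild type, with an adjusted p of 0.00314 that was 0.0118 to 0.0206 without any one jac1 library. AT5G22430, AT2G20870, AT3G28500 and AT5G33370 fell by 5.12, 4.98, 4.38 and 3.81. The lowest p among the higher genes was that of AT2G41250, a haloacid dehalogenase-like hydrolase gene, which had 225, 230 and 254 CPM in jac1, against 65.0, 58.9 and 73.1 CPM in the wild type (log2 FC 1.85, SE 0.076, adjusted p = 1.11e-08). After AT1G75945 and AT3G09450, the next were AT1G68440 and ATTPPA, a trehalose phosphate phosphatase gene, whose log2 FC of 1.02 and 1.1 lay just over the threshold, AT1G68440 standing at 0.99 without jac1 replicate 1. Among the lower genes, ARP9, an actin-related protein gene, and BBX8 joined PHS2, TOC1 and PRR5 with the lowest p, at log2 FC of -1.61 and -1.55.

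DEGs were counted by distance from JAC1, to see whether they gathered around the mutant locus. Within 500 kb, 4 of 248 genes tested were DEGs (1.61%), from 500 kb to 1 Mb 8 of 225 (3.56%) and from 1 to 2 Mb 9 of 430 (2.09%). The share per chromosome was 1.56 to 2.08%. The 1 Mb window that holds JAC1 had 7 of 229 (3.06%), and 19 of 111 windows along the genome had a higher share. The tested genes on either side of JAC1 were AT1G75110, 2.6 kb from it, which had a log2 FC of 0.26 and was not called, and AT1G75090. AT1G75090, at 3.8 kb, had 1.45, 1.28 and 1.05 CPM in jac1, against 2.52, 2.44 and 2.89 CPM in the wild type (log2 FC -1.04, SE 0.2, adjusted p = 0.00218), and missed a threshold without jac1 replicate 2 or 3 or wild-type replicate 3 (log2 FC -1.05 to -0.93, adjusted p 0.0107 to 0.0119). AT1G75945, 323 kb away, had 10.7, 9.38 and 10.6 CPM in jac1, against 0.391, 0.142 and 0.235 CPM in the wild type, a 40-fold higher mean (log2 FC 5.28, SE 0.22, adjusted p = 1.11e-08). After UV-C its log2 FC was 5.27, a difference of -0.01 (SE 0.45). The other 10 DEGs within 1 Mb were AT1G76240, AT1G76600 and AT1G72430, which rose by 1.44, 1.54 and 1.29, and ATL8, AT1G76590, DR4, AT1G76955, AT1G77520, AT1G77530 and THI2.1, which fell by 1.06 to 3.01. Of these, AT1G77530 lost its call without any of 5 libraries, jac1 replicate 3 being the exception (adjusted p 0.0126 to 0.031), and AT1G72430 without jac1 replicate 1 or 2 or wild-type replicate 2 or 3 (log2 FC 0.99 to 1.35, adjusted p 0.0152 to 0.0322). AT1G76600 lost it without jac1 replicate 2 or wild-type replicate 1 (adjusted p 0.0161 to 0.0192), and without jac1 replicate 2 alone the adjusted p was 0.0132 for DR4, 0.0134 for AT1G77520 and 0.0122 for THI2.1, while ATL8 had a log2 FC of -0.99.

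**Figure D4:**
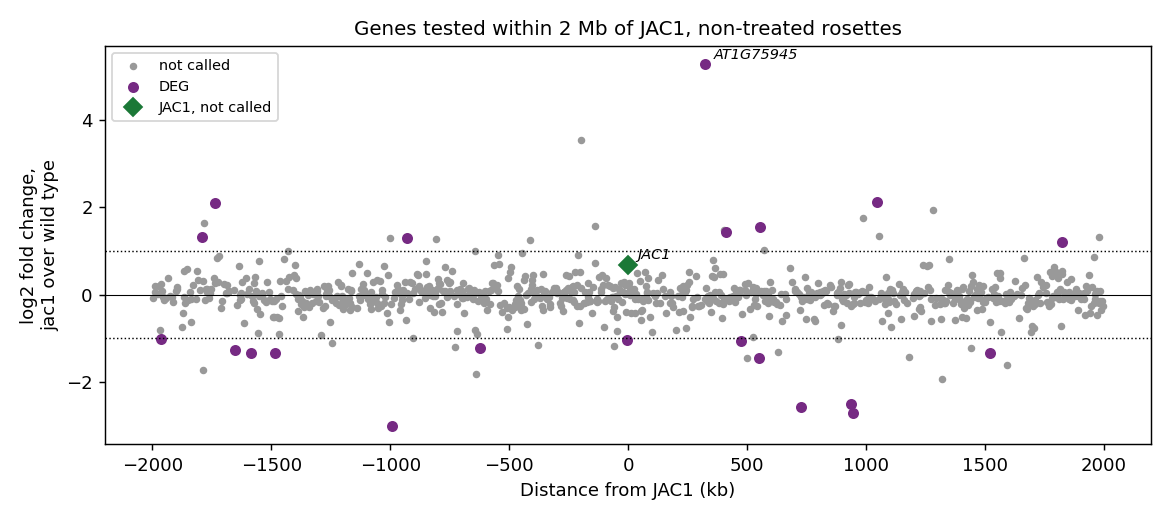
Log2 fold change (vertical axis, non-treated jac1 over non-treated wild type) of the genes tested within 2 Mb of JAC1 against their distance from it in kb, with DEGs in purple, JAC1 as a green diamond and dotted lines at a log2 FC of 1 and -1. AT1G75945, at 323 kb and a log2 FC of 5.28, lies far above the rest, and the other 11 DEGs within 1 Mb lie on both sides of 0.

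The 6 libraries taken after UV-C give the same genotypes in other samples. There 846 of 20021 nuclear genes were DEGs between the genotypes (4.23%, with 2.53% higher and 1.69% lower), and 119 of the 391 non-treated DEGs were among them. Of these 94 kept their sign, 57 higher and 37 lower, which is 24% of the non-treated DEGs and 11.1% of those after UV-C, and 25 had the opposite sign. Called or not, 263 of the 391 had the same sign. A test of the difference itself, the interaction of genotype and treatment, passed for 157 of the 391 (40.2%), against 3.9% of all nuclear genes, the 391 being genes chosen for their non-treated difference.

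The clock genes were among those that differed. PRR5 stood at 2.25, 2.98 and 1.64 CPM in jac1 after UV-C, against 0.944, 0.711 and 1.22 CPM in the wild type after UV-C, a log2 FC of 1.26 in place of -3.88 (adjusted p of the difference 1.15e-07). TOC1 stood at 15.5, 15.7 and 15.7 CPM in jac1 after UV-C and 22.9, 18.4 and 19.1 CPM in the wild type after UV-C, a log2 FC of -0.36 in place of -1.87. CCA1 and LHY had log2 FC of 0.12 and -0.52 after UV-C in place of 1.74 and 1.57, and the difference passed the test in both. TOC1, CCA1, LNK2, LNK4 and LUX kept their sign, with a log2 FC smaller in size after UV-C. The difference passed the test in TOC1, CCA1 and LNK2, but not in LUX or in LNK4 (-1.97, adjusted p = 0.0215). LNK1, RVE1, PIF5, COL5, PRR3, BOA, JMJD5, GRP7 and the AP1 and SEP3 floral genes also had the same sign in both pairs of groups. LNK1 had a log2 FC of 2.25 non-treated and 1.92 after UV-C, PIF5 of 1.63 and 1.67, and PRR3 of -1.61 and -2.37. In the wild type itself the evening list lay at a median deviation of -0.89 to -0.79 after UV-C and 0.34 to 0.62 without treatment on the scale of the plot of lists by sample. The hours at which the treated and the non-treated rosettes were taken were not given in the sources used here.

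**Figure D5:**
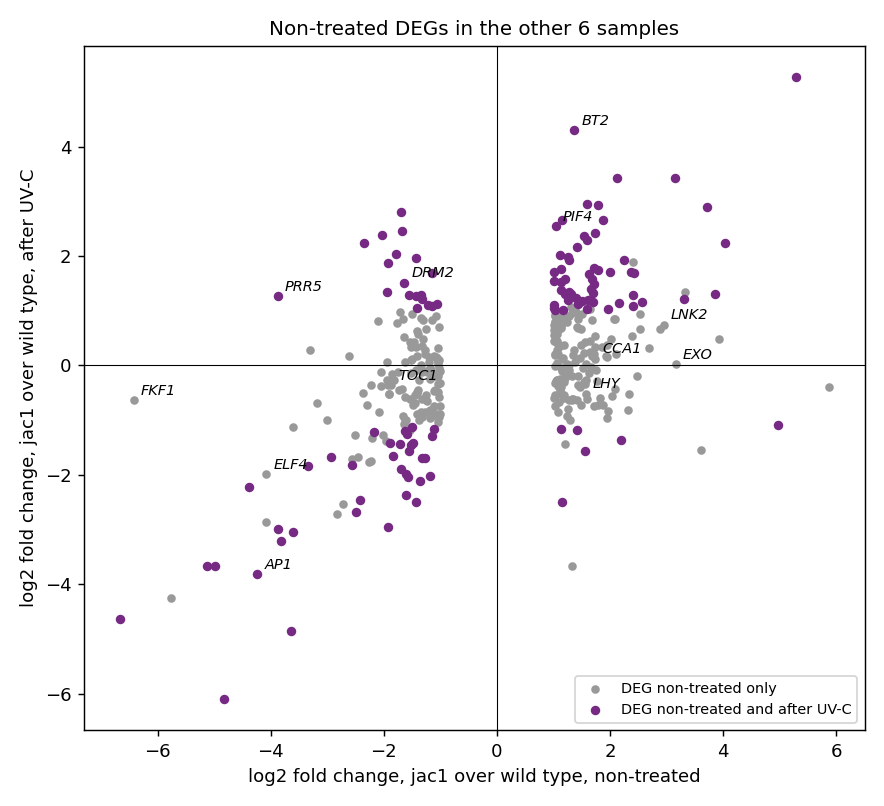
Log2 fold change of jac1 over wild type after UV-C (vertical axis) against the same in non-treated rosettes (horizontal axis) for the 391 non-treated DEGs, each with n = 3 libraries per group. Purple points are DEGs in both comparisons, 94 with the same sign and 25 with the opposite sign, among them PRR5 at -3.88 non-treated and 1.26 after UV-C, and grey points are DEGs in non-treated rosettes only.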

How the data were processed

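Whole rosettes were profiled by poly-A selected mRNA sequencing. The deposited values were whole-number read counts per gene, which the authors made with STAR 2.5.2b and featureCounts of Subread 1.6.2 on the Araport11 annotation, without strand and without reads that map to several places. Counts summed to 33999174 to 40445085 per non-treated library and 20897905 to 27194762 per library after UV-C. Chloroplast and mitochondrial genes were told apart by their identifiers.

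Protein-coding genes that reached 5 reads in 3 or more samples entered edgeR 4.0.16 (R 4.3.3) with TMM factors and 1 mean per group over all 12 samples, so that the 4 groups shared 1 estimate of spread. Genotypes were compared by the quasi-likelihood test, and p-values were adjusted by the Benjamini-Hochberg method across the whole table. Calls needed an FDR under 0.01 and a log2 FC beyond 1 in either direction. The SE of a log2 FC is its size over the square root of the F statistic. CPM were computed from counts and TMM library sizes, list levels by sample from log2(CPM + 0.1), and a group with at most 3 reads in every library was taken as at the floor. The fit was tested on simulated counts. Replicates were biological per the labels. No pair of libraries agreed within counting noise (chi-square over degrees of freedom 8.39 to 14.7 within groups).

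Genes named were JAC1, GL1, genes the study names for this comparison, the 10 with the largest change in each direction at 1 CPM or more without overlap, the 5 with the lowest p in each direction, called list members and those whose lack of a call is informative, and DEGs within 1 Mb of JAC1. Called list members beyond 4 in each direction, nitrate and wax genes, MEE14, CCL and other evening-element genes were named after their values were seen. Members and lists were chosen with earlier results of these data known. Promoter windows came from TAIR10.1, in which 37503 of the 37517 nuclear genes matched by locus tag had the start given in the count table. Alternatives were DESeq2 1.42.0, a likelihood ratio test, glmTreat, other scalings, filters and thresholds, replicate blocks and leaving out each library.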

Additional observations from a re-analysis of the deposited data

Results flagged for a closer look

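For 46 of 114 named genes screened, the log2 FC of jac1 over wild type was not the same after UV-C. This was by the test of the difference itself, at the thresholds used for DEGs (the log2 FC after UV-C minus the non-treated one, edgeR quasi-likelihood test). MEE14 and CCL joined the screen after their values were seen. PDC2, MT2A, ABF1, BBX13, AT4G30650 and AT5G43440, named only for their evening element, were not screened. These genes were chosen for their non-treated values.

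Among clock genes the difference was 5.15 for PRR5, 1.51 for TOC1, -2.21 for LNK2, -2.09 for LHY and -1.62 for CCA1. It was 5.79 for FKF1, a value that depends on the fit because non-treated jac1 was at the floor. Among output genes it was -2.67 for CDF5, -1.74 for COL2, -1.53 for BBX25, -1.36 for BBX19, 1.19 for GRP8 and 1.5 for PIF4, which was higher in jac1 in both pairs of groups, at 1.04 non-treated and 2.54 after UV-C. 4 antenna genes had a positive log2 FC in both pairs of groups and a smaller one after UV-C, with differences of -1.4 for LHCB1.1, -1.33 for LHCB2.2, -1.22 for LHCB2.1 and -1.12 for LHCB2.3. The pigment gene BCH2 had -1.58.

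In the touch and cell wall lists it was -3.44 for EXL7, -3.13 for EXO, -2.85 for XTH25, -2.52 for XTH23, -2.05 for XTH6, -1.91 for CML23, -1.57 for EXLA1 and -1.19 for EXLA2. The Calvin cycle list's FBA5 had 1.29. Among starch and low-energy genes it was -1.83 for BAM9, -1.54 for GBSS1, 1.36 for ISA3, 2.18 for ATL8, 2.94 for BT2 and 3.15 for DRM2. BT2 was higher in jac1 in both pairs of groups, while DRM2 had a log2 FC of -1.64 non-treated and 1.51 after UV-C. WRKY70 had -1.69, CER1 2.5 and ATTPPA -1.77.

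Of genes with an evening element outside the lists, CCL had 4.12, MEE14 3.81 and AT1G76590 3.4, and each turned sign. PRR5, CER1, FBA5 and ISA3 above also hold the element and turned sign, to log2 FC of 1.26, 0.84, 0.18 and 0.15 after UV-C. Of these, CER1, FBA5 and ISA3 were not called after UV-C. TOC1, FKF1 and GRP8 hold it too and stayed negative, at -0.36, -0.64 and -0.13 after UV-C. COL2, which also holds it, stayed positive, at 0.18. CCL, a transcript under clock control, had a log2 FC of -1.68 non-treated and 2.45 after UV-C, and MEE14 of -1.93 and 1.88. The remaining genes were AT3G09450 at -6.06, AT1G26790 at -5.16, AT3G54510 at -2.54, AT1G72430 at -2.28, AT3G55580 at -2.22, AT2G41250 at -1.51, AT5G54130 at -1.25 and AT1G68440 at -1.04.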

How the results depend on the processing

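The 391 DEGs (207 higher, 184 lower) became 298 to 405 when 1 library was left out, with 161 to 215 higher and 137 to 200 lower, the lowest without jac1 replicate 2, where 283 of the 391 were kept. No gene called in both fits had the opposite sign under any alternative. The likelihood ratio test called 579, DESeq2 427, the fit on the 6 non-treated samples 356, library-size scaling 398 and an FDR of 0.05 528. Testing against the fold threshold (glmTreat) left 67 DEGs, 31 higher and 36 lower, and dropping the fold threshold gave 1914, 1050 higher and 864 lower. With a replicate block by the number in the titles 408 were called, of which 380 were among the 391. With a replicate block by the number in the library names 191 were called, 95 higher and 96 lower, of which 181 were among the 391. These numbers were 2, 3 and 4 in non-treated jac1 and 1, 2 and 5 in the non-treated wild type. This block thus overlapped with genotype, and the drop cannot be read as a replicate effect. Same-numbered samples of the titles had correlated deviations of 0.248, 0.0777 and 0.152, and each sample correlated best with its own number. The second principal component, with 16% of the variance, also placed them together. Wild type and jac1 stood at 15.9 and 21.4 for replicate 1, 0.566 and 2.96 for replicate 2, and -19.1 and -21.7 for replicate 3. As 1 correlation was under 0.1, they were not treated as pairs, and the main fit has no term for what they share.

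By list, the morning clock genes had 11 called under the likelihood ratio test, 3 under glmTreat, 10 with no fold threshold and 4 to 10 with 1 library left out. Touch genes had 18, 1, 11 and 4 to 15 under the same settings, 2 in the fit on 6 samples and 3 with the library-name replicate block. Antenna genes had 4 under glmTreat, 15 with no fold threshold and 9 with any library left out. Cell wall genes had 0 under glmTreat, 5 with the library-name block and 8 to 13 with 1 library left out. Output genes had 1 under glmTreat and 10 to 18 with 1 library left out, evening clock genes 7 to 8, and flower markers 1 under glmTreat, 1 with the library-name block and 4 to 5. Of 114 named genes called, 68 were called under every alternative but glmTreat and 39 under glmTreat. The DEGs shared with the same sign after UV-C numbered 80 to 96 with 1 library left out.

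Sign changes occurred in PRR9, ZTL and HY5, which were not called. PRR9, at -0.30, was 2.70 under the likelihood ratio test (adjusted p = 0.00419), 1.25 with the library-name replicate block, and -1.76 to 4.8 with 1 library left out (0.21, 0.01 and 4.8 without jac1 replicate 1, jac1 replicate 2 and wild-type replicate 3). ZTL was -0.06 with library-size scaling and -0.01 to 0.07 with 1 library left out, and HY5 was -0.02 with library-size scaling. The causes were not tested. Genes with few reads, such as the flower markers, carry the widest errors, and 6 DEGs were at the floor in jac1 and 3 in the wild type.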

Other observations

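Nitrate reductase genes, looked up after the DEGs had been seen, were higher in jac1. NIA2, the main nitrate reductase of leaves, had 864, 1322 and 1160 CPM in jac1, against 146, 271 and 209 CPM in the wild type (log2 FC 2.42, SE 0.28, adjusted p = 5.31e-05). NIA1 had 27.9, 44.5 and 43.3 CPM in jac1, against 4.08, 12.1 and 10.5 CPM in the wild type (log2 FC 2.13, adjusted p = 0.0017). Both were also called after UV-C, with log2 FC of 1.69 for NIA2 and 3.43 for NIA1. HRS1, a nitrate-responsive repressor, had 22, 36 and 16 reads in jac1, against 4, 4 and 1 reads in the wild type (adjusted p = 0.00633), but lost its call without any of 5 libraries, jac1 replicate 3 being the exception (adjusted p 0.0104 to 0.0342). The later steps of nitrogen assimilation were not called, at log2 FC of 0.51 for NIR1, 0.02 for GS2 and 0.10 for GLU1. Of these, NIR1 passed the FDR (adjusted p = 0.00575) but not the fold threshold. The nitrate transporter NRT1.1 was at -0.04.

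Some wax genes, likewise looked up afterwards, were lower in jac1. CER4, the fatty acyl reductase that makes primary alcohols, had 2, 4 and 0 reads in jac1, against 53, 42 and 29 reads in the wild type (log2 FC -4.09, SE 0.66, adjusted p = 0.000703). CYP96A15, AT5G33370 and CER1 were lower too, while several other genes of wax and cutin had a positive log2 FC and were not called. CER3 and KCS10 were at 0.73 and 0.40, past the FDR threshold (adjusted p = 0.00024 and 0.00657) but not the fold threshold, and CER2, KCS6 and LACS2 at 0.41, 0.25 and 0.15.

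Of the 42 lower DEGs with an evening element, 8 were lower and called after UV-C and 6 were higher and called. The 6 were PRR5, MEE14, CCL, AT1G76590, AT4G30650 and AT5G43440, the last at a log2 FC of -1.79 non-treated and 2.03 after UV-C.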
